A study of Mus musculus with 2 samples.

Results

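Colony-stimulating factors are the secreted signals that myeloid cells need to arise, survive and mature, and 7 genes of this system were followed through the heart: the ligands Csf1 and Il34, and the receptors Csf1r, Csf2ra, Csf2rb, Csf3r and Flt3. They were chosen by symbol, and all 7 were found among the 22441 gene symbols of both libraries, of which 16386 had at least 1 unique molecular identifier (UMI, a tag that counts 1 captured RNA molecule). AC8 overexpressing C57/B6 mice were compared with C57/B6 wild-type (WT) littermates, both untreated, with 1 droplet single-cell library of pooled hearts per genotype. AC8 is adenylyl cyclase type 8, which makes cyclic AMP, and the series title places its overexpression in cardiomyocytes. CD45+CD31- leukocytes, CD45-CD31- mesenchymal cells and CD45-CD31+ endothelial cells had been sorted and mixed in equal numbers, so cardiomyocytes were not sampled as a class and the balance between the sorted fractions was set by the mixing. The labels give neither the age nor the number of the mice.

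CSF1 and IL-34 are separate ligands of 1 receptor, the tyrosine kinase CSF1R, on which tissue macrophages depend. CSF2RA binds GM-CSF (the product of Csf2) and signals with CSF2RB, the beta chain that the receptors for IL-3 and IL-5 also use. CSF3R is the G-CSF receptor of neutrophils and their precursors, and FLT3 binds FLT3 ligand and drives the formation of dendritic cells.

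The AC8 library held 4867 cells and the WT library 5800, and after filtering 3578 AC8 cells (median 2324 UMIs) and 3546 WT cells (median 1884.5 UMIs) were kept. They formed 19 clusters in 10 classes, each called like the cell type whose markers stood highest in it, and none of the 7 genes was used to form or name a class. Of Adcy8, the gene for AC8, 1 UMI was found in the AC8 library and 0 in the WT library, so the overexpression could not be checked in these cells. The barcodes had been replaced by running numbers, so those shared by the libraries could not be counted. Since each genotype had 1 library, no difference could be checked in replicates, and no test was made. Levels are given as UMIs per 1000000 UMIs of a class (CPM), and intervals are exact at 95% and cover counting error only. Where a count of 0 is said to allow a level, that level is 3 counts, below the upper end of such an interval. The UMIs of a gene often lay in few cells, which such intervals do not take into account.

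RefSeq promoters of GRCm38.p6, 250 bases before to 50 after the start site, were matched for 4 of the 7 genes, and 3 of them are shown because they hold a letter match to a factor that reads cyclic AMP or RelA signals or that marks myeloid genes. Capitals mark the matches, sequences run 5′ to 3′ on the strand of the gene, and the motifs were chosen after these promoters had been seen.
Csf1, chr3:107760420-107760719, minus strand: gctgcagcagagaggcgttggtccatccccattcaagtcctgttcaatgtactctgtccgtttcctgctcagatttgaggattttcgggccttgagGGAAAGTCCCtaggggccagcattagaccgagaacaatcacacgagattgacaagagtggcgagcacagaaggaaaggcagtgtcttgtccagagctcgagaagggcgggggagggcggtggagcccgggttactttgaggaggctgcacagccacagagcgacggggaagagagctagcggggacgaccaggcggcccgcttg
Csf2ra, chr19:61228369-61228668, minus strand: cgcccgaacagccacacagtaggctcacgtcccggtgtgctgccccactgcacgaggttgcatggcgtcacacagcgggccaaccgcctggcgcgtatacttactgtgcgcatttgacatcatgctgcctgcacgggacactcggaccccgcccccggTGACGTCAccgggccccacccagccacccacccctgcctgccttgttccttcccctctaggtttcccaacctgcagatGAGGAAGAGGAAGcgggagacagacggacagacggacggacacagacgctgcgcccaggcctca
Csf3r, chr4:126024409-126024708, plus strand: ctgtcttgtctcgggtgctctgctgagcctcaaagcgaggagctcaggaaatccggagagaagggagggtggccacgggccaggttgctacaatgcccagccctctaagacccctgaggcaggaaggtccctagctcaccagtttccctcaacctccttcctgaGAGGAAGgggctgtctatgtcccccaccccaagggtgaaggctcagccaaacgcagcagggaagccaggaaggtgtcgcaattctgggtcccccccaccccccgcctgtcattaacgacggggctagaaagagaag

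Both strands were searched for 3 motifs. The Csf1 window holds, on its other strand, the NF-kB site of the immunoglobulin kappa enhancer, printed in capitals and starting at position -154 from the start site. The Csf2ra window holds the full cAMP response element TGACGTCA at -92 and 2 copies of the PU.1 core GAGGAAG at -14 and -8, which overlap each other. The Csf3r window holds 1 PU.1 core at -86, and the Flt3 window holds none of the 3 motifs. Of 32851 promoters of the same length, 0.155% held that NF-kB site, 1.79% the cAMP response element and 13.6% the PU.1 core. These are letter matches, and no binding was measured.

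On GRCm38, the assembly also called mm10, Csf1 lies at chr3:107741048-107760469, Il34 at chr8:110741829-110805924, Csf1r at chr18:61100598-61132149, Csf2ra at chr19:61223957-61228429, Csf2rb at chr15:78325752-78353847, Csf3r at chr4:126024550-126044440 and Flt3 at chr5:147330741-147400489. Csf2rb has a near-identical neighbour on chromosome 15, Csf2rb2, which encodes the mouse IL-3-specific beta chain, and reads of the pair can be split between them.

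Csf1, the ligand that maintains tissue macrophages, came mainly from fibroblast-like cells in both libraries. These cells held 734 of its 891 UMIs in the AC8 library and 772 of 902 in the WT library, which is 82.4% in AC8 and 85.6% in WT. The level in fibroblast-like cells was 167 CPM in AC8 (interval 155 to 180) and 176 CPM in WT (163 to 189). Endothelial-like cells had 83.2 CPM in AC8 and 94.8 CPM in WT, and mural-like cells, the pericytes and smooth muscle of vessels, had 64.3 CPM in AC8 and 63.0 CPM in WT. Schwann cell-like cells had no Csf1 UMI in AC8, which allows at most 78.9 CPM, and 84.5 CPM in WT from 4 UMIs (23.0 to 216). The intervals of these 3 classes overlap, and their order is not resolved. In macrophage-like cells, which carry the receptor, Csf1 reached only 9.12 CPM in AC8 and 9.67 CPM in WT. After each cell was thinned to 1000 UMIs, Csf1 was found in 15.5% of AC8 and 15.1% of WT fibroblast-like cells, against 0.277% of AC8 and 0.861% of WT macrophage-like cells.

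**Figure D1:**
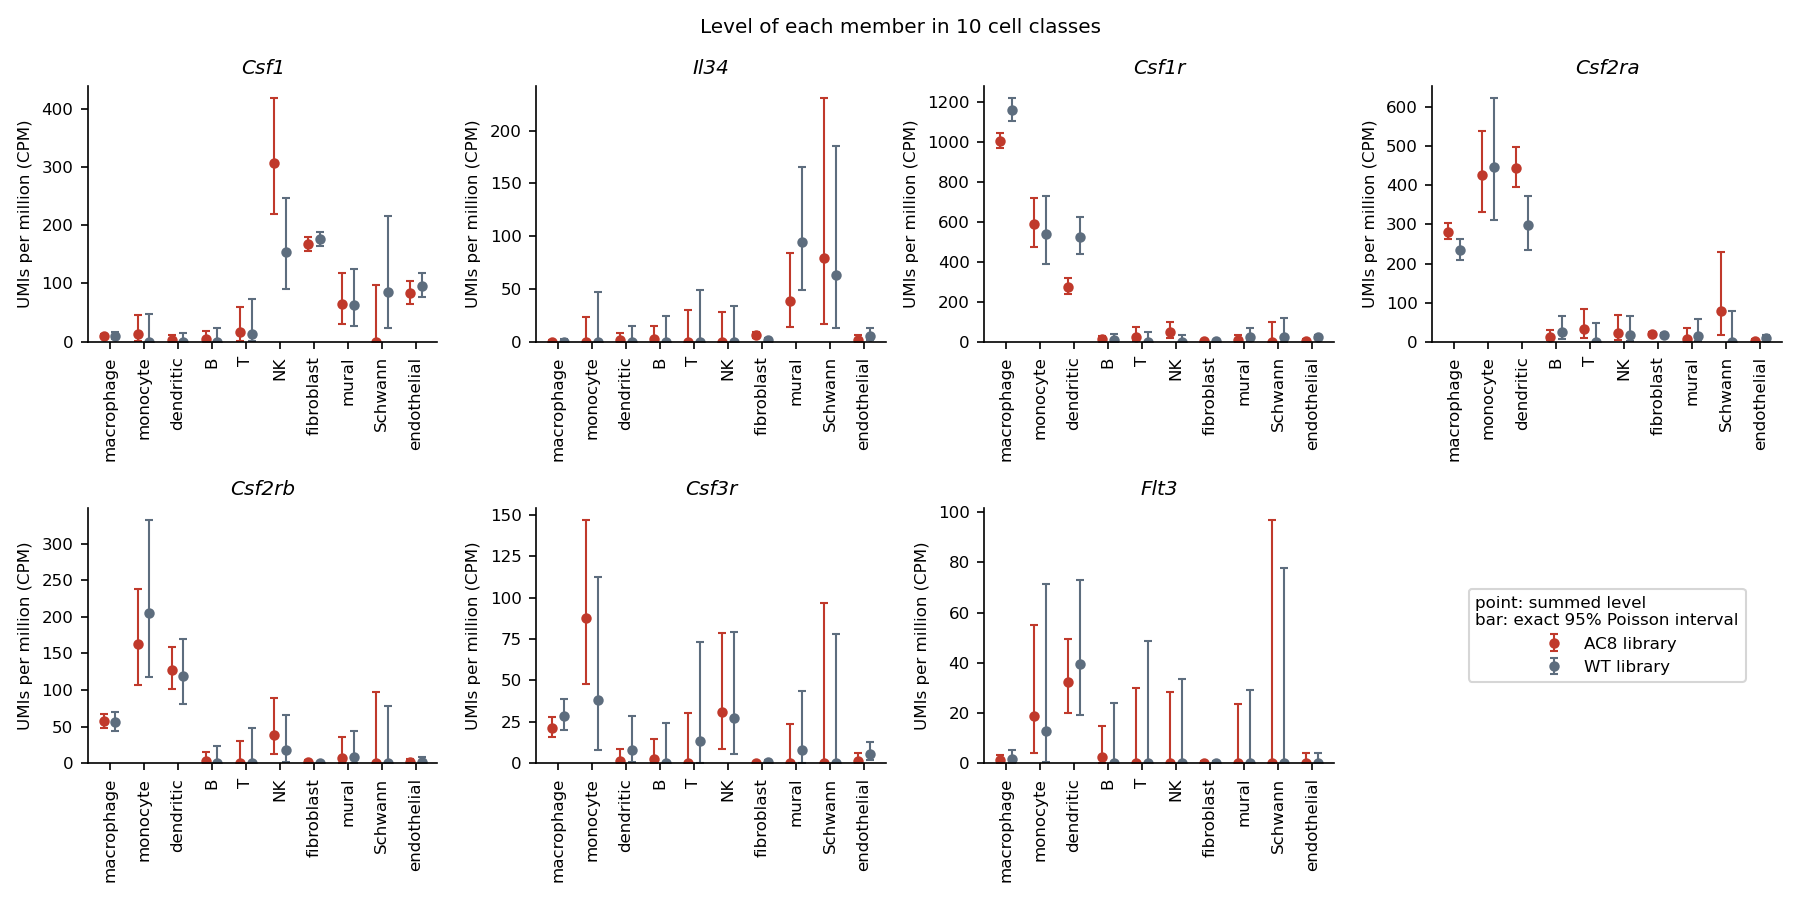
Level of each of the 7 genes (y axis, CPM) in the 10 cell classes (x axis); points are sums over all cells of a class, AC8 in red to the left of WT in grey, and bars are exact 95% Poisson intervals. Csf1 stands in stromal and endothelial classes and, from few cells, in the NK cell-like class, and Il34 in stromal classes, while Csf1r, Csf2ra and Csf2rb stand in macrophage-, monocyte- and dendritic cell-like classes in both libraries; the long bars of Schwann cell-like cells come from 22 AC8 and 31 WT cells.

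All 6 fibroblast-like clusters held Csf1 UMIs in both libraries. The highest level stood in the cluster led by Gm38394, Jmjd1c, Arid5a and Nfat5, with 404 CPM in AC8 and 367 CPM in WT. This cluster also had the fewest UMIs per fibroblast-like cell, a median of 1444 in AC8 and 1562 in WT. The cluster led by Igfbp3 and Cytl1 followed with 216 CPM in AC8 and 209 CPM in WT. The other clusters ranged from 148 to 174 CPM in AC8 and from 126 to 191 CPM in WT. The cluster led by Osr1, Inmt and Ccl19 had 148 CPM in AC8 (131 to 166) and 189 CPM in WT (162 to 220), whereas the cluster led by Thbs1 and Smoc2 had 174 CPM in AC8 (113 to 257) and 126 CPM in WT (106 to 148). The Thbs1 cluster held 59 AC8 and 519 WT cells, and the Osr1 cluster 639 AC8 and 376 WT cells.

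The highest Csf1 level of the AC8 library was not in stroma but in the NK cell-like class, with 307 CPM (219 to 418) from 9 of 65 cells, against 154 CPM (89.8 to 247) from 6 of 66 cells in WT. With cells of at least 500 UMIs and 250 genes, the class had 290 CPM in AC8 (207 to 397) and 261 CPM in WT (179 to 366), the highest of all classes in both libraries. Single cells carried up to 11 of these UMIs in each library. Neutrophil markers in this class summed to 7800 CPM in AC8 (8 of 8 detected) and 2711 CPM in WT (7 of 8, with Ly6g at 0), and their part in the Csf1 values was not tested. When this class was clustered again, 13 cells (11 AC8 and 2 WT) led by S100a9, S100a8 and Hdc held 49 of its 57 Csf1 UMIs. The subgroup led by Prf1 and with the NK genes Ncr1 and Eomes had 0 Csf1 UMIs in 26 AC8 cells and 1 in 31 WT cells. The neutrophil marker list itself includes Hdc. Hdc encodes histidine decarboxylase, which makes histamine. Among the 4595 AC8 and 5478 WT cells kept at 500 UMIs and 250 genes, some had at least 3 Hdc UMIs and neither S100a8 nor S100a9. They numbered 7 in AC8 and 4 in WT, a definition made after their values had been seen. They held 36 Csf1 UMIs in AC8 and 27 in WT, a level of 3246 CPM in AC8 and 6863 CPM in WT. These few cells held 3.50% of all deposited Csf1 UMIs of the AC8 library and 2.43% of those of the WT library. In AC8 6 of the 7 and in WT 2 of the 4 carried a UMI of Mcpt8, Cd200r3, Gata2, Il4 or Cpa3, genes of basophils and mast cells. Most of them lacked Mcpt8 in both libraries, the genes were not fixed beforehand, and the cells were not named. None carried the NK genes Gzma or Ncr1, and other NK markers were not counted in them. Hdc-rich cells that did carry S100a8 or S100a9 (3 AC8, 8 WT) held 1 Csf1 UMI in each library.

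Il34, the other CSF1R ligand, which is best known from skin and brain, was scarce. Kept cells held 38 of its UMIs in AC8 and 27 in WT, and all deposited cells held 40 in AC8 and 46 in WT. Its highest levels stood in mural-like cells, with 38.6 CPM in AC8 (14.2 to 84.0) and 94.5 CPM in WT (48.8 to 165), and in Schwann cell-like cells, with 78.9 CPM in AC8 and 63.4 CPM in WT from 3 UMIs in each. The order of these classes is not resolved. At the lower filter of 500 UMIs used above, mural-like cells had 39.8 CPM in AC8 (7 UMIs, 16.0 to 82.1). In WT they had 127 CPM (27 UMIs, 83.6 to 185), and these intervals do not overlap. At that filter a mural-like cluster led by Rgs5 and Vtn appeared, with 36 AC8 and 149 WT cells. Its median was 848 UMIs in AC8 and 692 in WT, and its part in the Il34 values was not tested. Fibroblast-like cells held 26 UMIs in 18 cells in AC8 and 7 UMIs in 6 cells in WT, or 5.93 CPM in AC8 and 1.59 CPM in WT, with up to 5 UMIs in a single AC8 cell. Of the 26 UMIs in AC8, 14 lay in the Osr1 cluster, which had 7.47 CPM in AC8 and no UMI in WT, where that allows at most 3.29 CPM. Macrophage-like cells had no Il34 UMI in either library, which allows at most 1.14 CPM in AC8 and 2.23 CPM in WT.

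**Figure D2:**
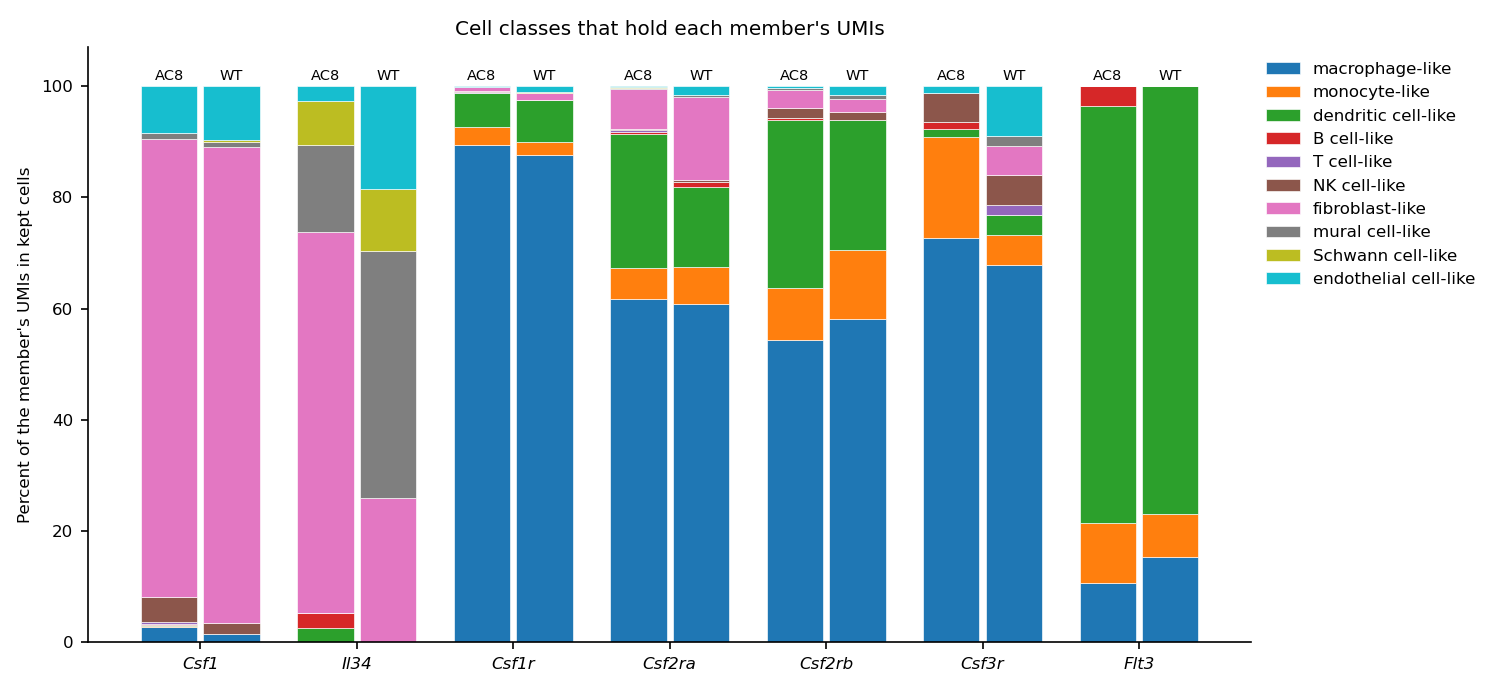
Percent of each gene's UMIs in kept cells (y axis) that lay in each of the 10 classes (colours), with the AC8 bar left of the WT bar for each gene (x axis). Fibroblast-like cells hold 82.4% of Csf1 in AC8 and 85.6% in WT, macrophage-like cells 89.4% of Csf1r in AC8 and 87.6% in WT, and dendritic cell-like cells 75.0% of Flt3 in AC8 and 76.9% in WT; the shares also follow how many cells of each class were sorted.

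Csf1r, the receptor of both ligands, lay in macrophage-like cells rather than in stroma. Macrophage-like cells held 89.4% of its UMIs in AC8 and 87.6% in WT, at 1005 CPM in AC8 (967 to 1044) and 1159 CPM in WT (1102 to 1218). Monocyte-like cells followed with 589 CPM in AC8 and 538 CPM in WT, and dendritic cell-like cells with 275 CPM in AC8 and 524 CPM in WT. The intervals of monocyte-like and dendritic cell-like cells overlap in WT (387 to 727 against 438 to 621) but not in AC8 (476 to 720 against 237 to 319). In fibroblast-like cells Csf1r was found at 4.56 CPM in AC8 and 4.78 CPM in WT, never more than 1 UMI per cell. At 1000 UMIs per cell, Csf1r was seen in 60.8% of AC8 and 67.3% of WT macrophage-like cells, against 0.719% of AC8 and 0.420% of WT fibroblast-like cells. Endothelial-like cells had 5.55 CPM in AC8 and 21.8 CPM in WT. In WT 10 of those 20 UMIs lay in 1 cell.

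The alpha chain of the GM-CSF receptor, Csf2ra, was spread over the same 3 myeloid classes in another order. Its level was 445 CPM in AC8 and 298 CPM in WT in dendritic cell-like cells, 426 CPM in AC8 and 448 CPM in WT in monocyte-like cells, and 282 CPM in AC8 and 235 CPM in WT in macrophage-like cells. Fibroblast-like cells stood at 19.6 CPM in AC8 (15.7 to 24.2) and 17.7 CPM in WT (14.0 to 22.1). At 1000 UMIs per cell, 1.18% of AC8 and 1.52% of WT fibroblast-like cells had a UMI, against 0.350% of AC8 and 0.971% of WT endothelial-like cells. The partner chain Csf2rb showed 163 CPM in AC8 and 205 CPM in WT in monocyte-like cells, 128 CPM in AC8 and 119 CPM in WT in dendritic cell-like cells, and 57.0 CPM in AC8 and 55.8 CPM in WT in macrophage-like cells. Fibroblast-like cells had 2.05 CPM of Csf2rb in AC8 and 0.683 CPM in WT. Csf2rb2 had 170 UMIs in AC8 and 78 in WT, so how reads were shared between the pair could alter these Csf2rb levels.

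Csf3r is a receptor of neutrophils, and no neutrophil-like class remained after the filter on UMIs. Among kept cells, Csf3r was found at 87.7 CPM in AC8 (14 UMIs) and 38.4 CPM in WT (3 UMIs) in monocyte-like cells and at 21.3 CPM in AC8 and 28.3 CPM in WT in macrophage-like cells. Neutrophil markers differed in the same monocyte-like cells, with 7 of 8 detected in each library and a summed level of 507 CPM in AC8 (Ly6g at 0) and 15694 CPM in WT (Cxcr2 at 0), and their part in the Csf3r values was not tested. When cells of at least 500 UMIs and 250 genes were clustered, a neutrophil-like cluster of 29 AC8 and 49 WT cells appeared, of which 24 in AC8 and 45 in WT had under 1000 UMIs. There Csf3r reached 1393 CPM in AC8 (965 to 1947) and 1426 CPM in WT (1074 to 1856), with a UMI in 72.4% of AC8 and 67.3% of WT cells. The same cells carried Csf2ra at 410 CPM in AC8 and 441 CPM in WT, and Csf1r by only 2 UMIs in AC8 and 1 in WT. The ligand Csf1 was found in them too, from few UMIs. It had 205 CPM in AC8 (5 UMIs, 66.5 to 478) and 104 CPM in WT (4 UMIs, 28.3 to 266).

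Flt3, the receptor of dendritic cell development, was sparse, with 28 UMIs in AC8 and 13 in WT. Dendritic cell-like cells held 21 of them in AC8 and 10 in WT, at 32.3 CPM in AC8 (20.01 to 49.4) and 39.7 CPM in WT (19.0 to 73.0). Neither fibroblast-like nor endothelial-like cells had a UMI in either library. In fibroblast-like cells that allows at most 0.684 CPM in AC8 and 0.683 CPM in WT.

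Between genotypes, none of the measured members differed by 1.5-fold or more in the 4 classes with at least 100 cells per library, on log2 ratios with 10 CPM added. A gene was counted as measured from 30 UMIs over both libraries. In macrophage-like cells 0 of 5 measured members passed in either direction, while 5.68% of 8474 genes were higher and 6.54% lower in AC8. In fibroblast-like cells 0 of 4 passed, against 0.847% of 10621 genes higher and 2.94% lower, and in endothelial-like cells 0 of 1 passed, against 4.29% of 7327 higher and 5.58% lower. No member was measured in B cell-like cells, where 9.16% of 2883 genes were higher and 11.5% lower.

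Csf1 in stromal cells was at similar levels in the libraries. The ratio of AC8 over WT was 0.953 in fibroblast-like cells (0.860 to 1.06) and 0.877 in endothelial-like cells (0.636 to 1.21). Without the Thbs1 cluster, an alternative chosen after seeing the data, the fibroblast-like ratio was 0.866 (0.777 to 0.966). Il34 in fibroblast-like cells had a ratio of 3.72 (1.57 to 10.2) from 26 UMIs in AC8 and 7 in WT, and 9.62 (2.40 to 83.8) without the Thbs1 cluster. With 10 CPM added the Il34 ratio was 0.46 on the log2 scale, and with 1 CPM added it was 1.42, past 1.5-fold. In mural-like cells, with fewer than 100 cells per library, Il34 went the other way. Its ratio there was 0.409 (0.126 to 1.18) from 6 UMIs in AC8 and 12 in WT.

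**Figure D3:**
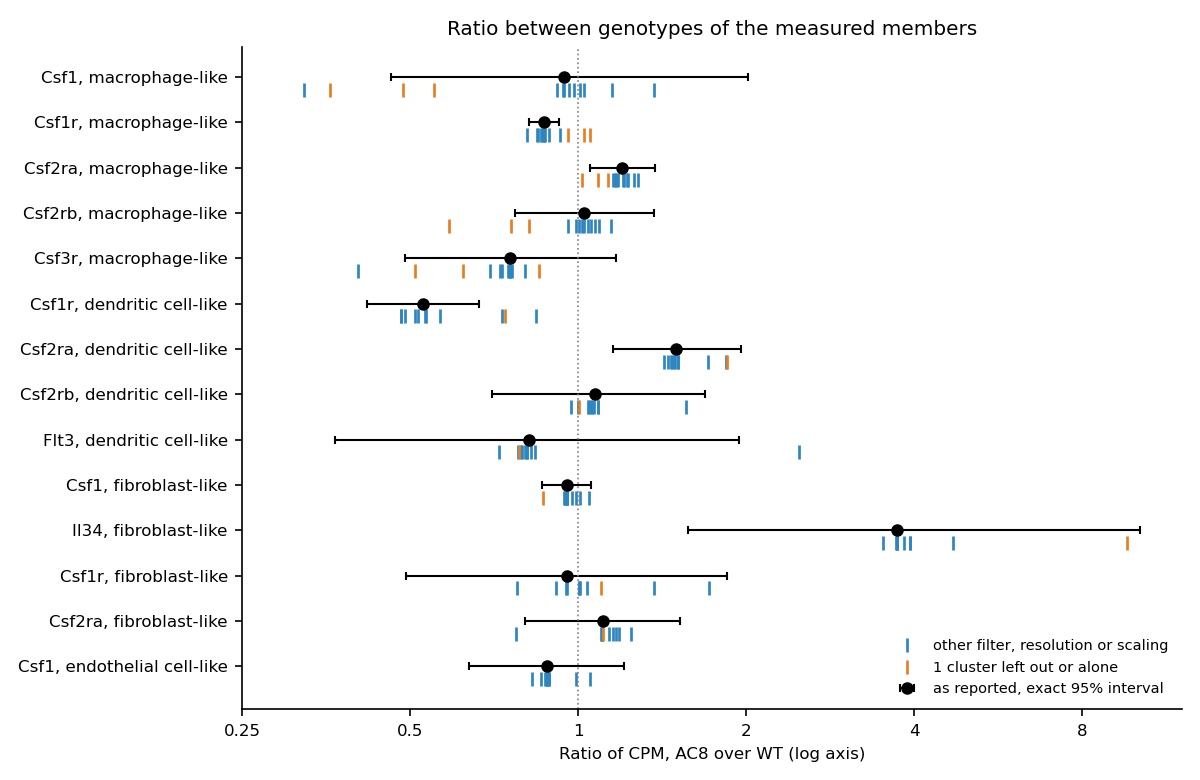
Ratio of CPM in AC8 over WT (x axis, log scale) for each measured member in macrophage-, dendritic cell-, fibroblast- and endothelial-like classes (rows); black points and bars are the reported ratio with its exact 95% interval, blue ticks other filters, resolutions or scalings, and orange ticks the class without 1 cluster or 1 cluster alone. The macrophage-like Csf1r ratio of 0.867 moves to 1.05 without 1 cluster. The dendritic cell-like Csf2ra ratio of 1.49, added after seeing the data, stays above 1 in each alternative, with its interval above 1 in 10 of 11.

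In macrophage-like cells taken whole, Csf1r had a ratio of 0.867 (0.815 to 0.924) and Csf2ra a ratio of 1.20 (1.05 to 1.37). In the Lyve1 and MHC class II clusters both genes were closer between the libraries. The cluster led by Lyve1 and Folr2, genes of resident cardiac macrophages, had 1393 CPM of Csf1r in AC8 and 1454 CPM in WT. The cluster led by the MHC class II genes H2-Eb1 and H2-Ab1 had 919 CPM in AC8 and 898 CPM in WT. The cluster led by Gpnmb and Spp1, genes of lipid-handling and scar-associated macrophages, had 483 CPM in AC8 and 508 CPM in WT, the lowest of the 3 clusters in both libraries, and it held 138 AC8 cells but 7 WT cells. Without it, the Csf1r ratio was 1.05 (0.983 to 1.12) and the Csf2ra ratio 1.01 (0.875 to 1.18). This cluster is mostly of 1 library, with a median of 5484 UMIs per cell in AC8.

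Csf2ra was lowest in the Lyve1 cluster, where Csf1r was highest, in both libraries. It stood at 197 CPM in AC8 and 174 CPM in WT in the Lyve1 cluster, at 322 CPM in AC8 and 296 CPM in WT in the MHC class II cluster, and at 380 CPM in AC8 and 241 CPM in WT in the Spp1 cluster, where the WT value rests on 9 UMIs. Csf2rb was 45.9 CPM in AC8 and 56.4 CPM in WT in the Lyve1 cluster, 29.7 CPM in AC8 and 50.7 CPM in WT in the MHC class II cluster, and 94.3 CPM in AC8 and 134 CPM in WT (5 UMIs) in the Spp1 cluster. Its ratio was 1.02 (0.770 to 1.37) over the whole class and 0.757 (0.539 to 1.06) without the Spp1 cluster. Csf3r in macrophage-like cells had a ratio of 0.753 (0.490 to 1.17), and 0.403 (0.168 to 0.902) with each cell thinned to 1000 UMIs. Neutrophil markers in these cells summed to 98.8 CPM in AC8 and 469 CPM in WT (7 of 8 detected in each, Ly6g at 0), and their part was not tested.

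**Figure D4:**
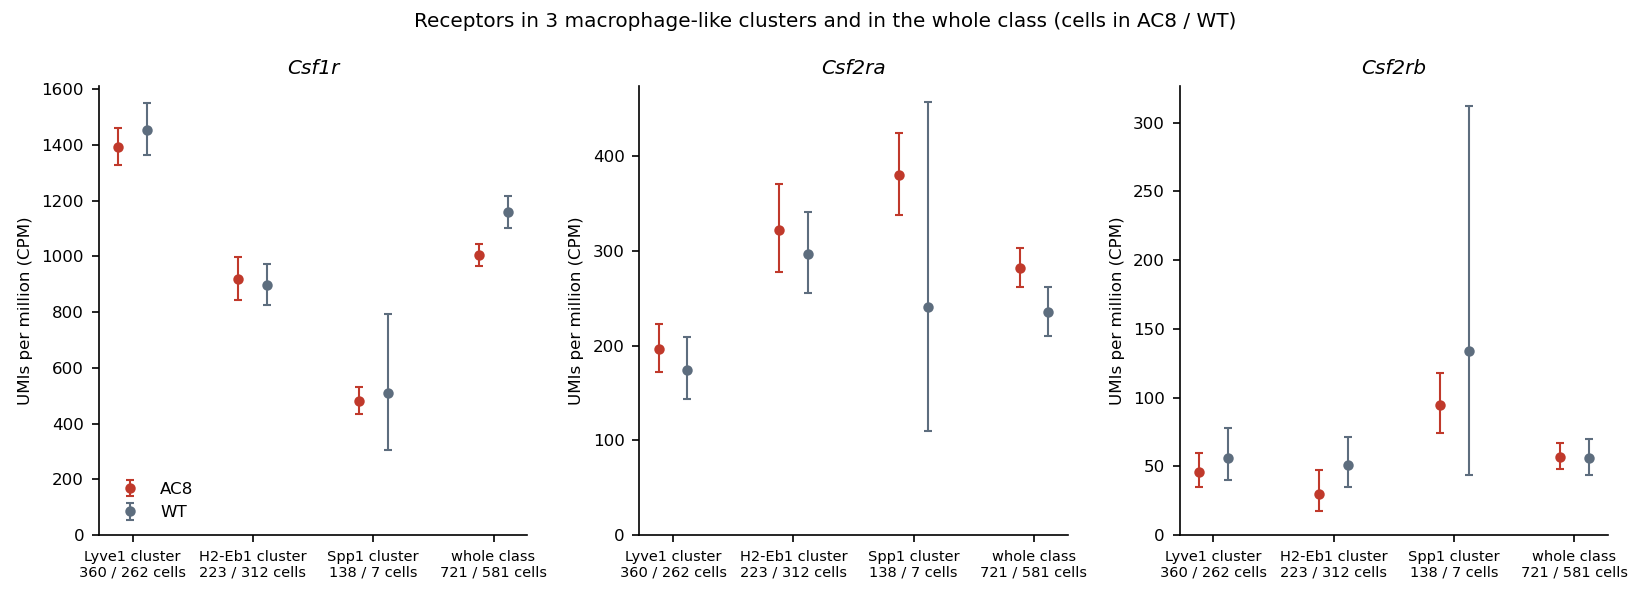
Csf1r, Csf2ra and Csf2rb (panels; y axis in CPM) in the 3 macrophage-like clusters and the whole class (x axis, with cells in AC8 and WT), AC8 in red left of WT in grey, bars exact 95% Poisson intervals. Csf1r is highest in the Lyve1 and lowest in the Spp1 cluster in both libraries (1393, 919 and 483 CPM in AC8; 1454, 898 and 508 CPM in WT), and the libraries differ in how many cells the Spp1 cluster holds, 138 in AC8 and 7 in WT.

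Dendritic cell-like cells, 155 in AC8 and 77 in WT, were below 100 cells in WT, and their ratios were added after seeing the data. Csf1r had a ratio of 0.526 (0.418 to 0.663), Csf2ra 1.49 (1.16 to 1.95), Csf2rb 1.07 (0.699 to 1.69) and Flt3 0.814 (0.367 to 1.94). The class was clustered again without the 7 genes and fell into 5 subgroups. Macrophage markers were present in the class, 8 of 8 detected in each library with a summed level of 5844 CPM in AC8 and 5411 CPM in WT.

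Flt3 had no UMI in the subgroup with the highest Csf1r. It stood at 77.2 CPM in AC8 (6 UMIs, 28.3 to 168) and 159 CPM in WT (4 UMIs, 43.3 to 407) in the subgroup with Clec9a and Xcr1, markers of type 1 conventional dendritic cells. In the subgroup led by Cd209a it stood at 66.6 CPM in AC8 (13 UMIs, 35.5 to 114) and 45.5 CPM in WT (5 UMIs, 14.8 to 106), and the order of these 2 subgroups is not resolved. Neither library had a Flt3 UMI in the subgroups led by Mmp12 and Fn1 or by Apoe and Ms4a7. Csf1r was highest in the Apoe subgroup, whose leading genes Pf4 and C1qc are macrophage genes, with 763 CPM in AC8 (599 to 958) and 1737 CPM in WT (1375 to 2165). Csf1r in the Clec9a subgroup was 38.6 CPM in AC8 and 39.7 CPM in WT, from 3 UMIs in AC8 and 1 in WT. A UMI of both Csf1r and Flt3 was found in 1 of 155 AC8 and 2 of 77 WT cells of the class. Csf2ra was found in each of the subgroups. The subgroup led by Fscn1 and with Ccr7, the receptor that guides mature dendritic cells to lymph nodes, held 12 AC8 cells and 1 WT cell, and its AC8 cells had the highest Csf2rb of the AC8 subgroups, 289 CPM (172 to 457).

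Csf1r levels of the 2 libraries were farthest apart in the Apoe subgroup. Without that subgroup the Csf1r ratio was 0.740 (0.527 to 1.05), and the Csf2ra ratio was 1.85 (1.36 to 2.54). Csf2ra was 466 CPM in AC8 and 228 CPM in WT in the Cd209a subgroup and 528 CPM in AC8 and 275 CPM in WT in the Mmp12 subgroup, but 382 CPM in AC8 and 528 CPM in WT in the Apoe subgroup. Median depth in the class was 4011 UMIs in AC8 and 3021 in WT, and at 1000 UMIs per cell Csf2ra was seen in 39.4% of AC8 (31.6% to 47.5%) and 27.3% of WT cells (17.7% to 38.6%).

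**Figure D5:**
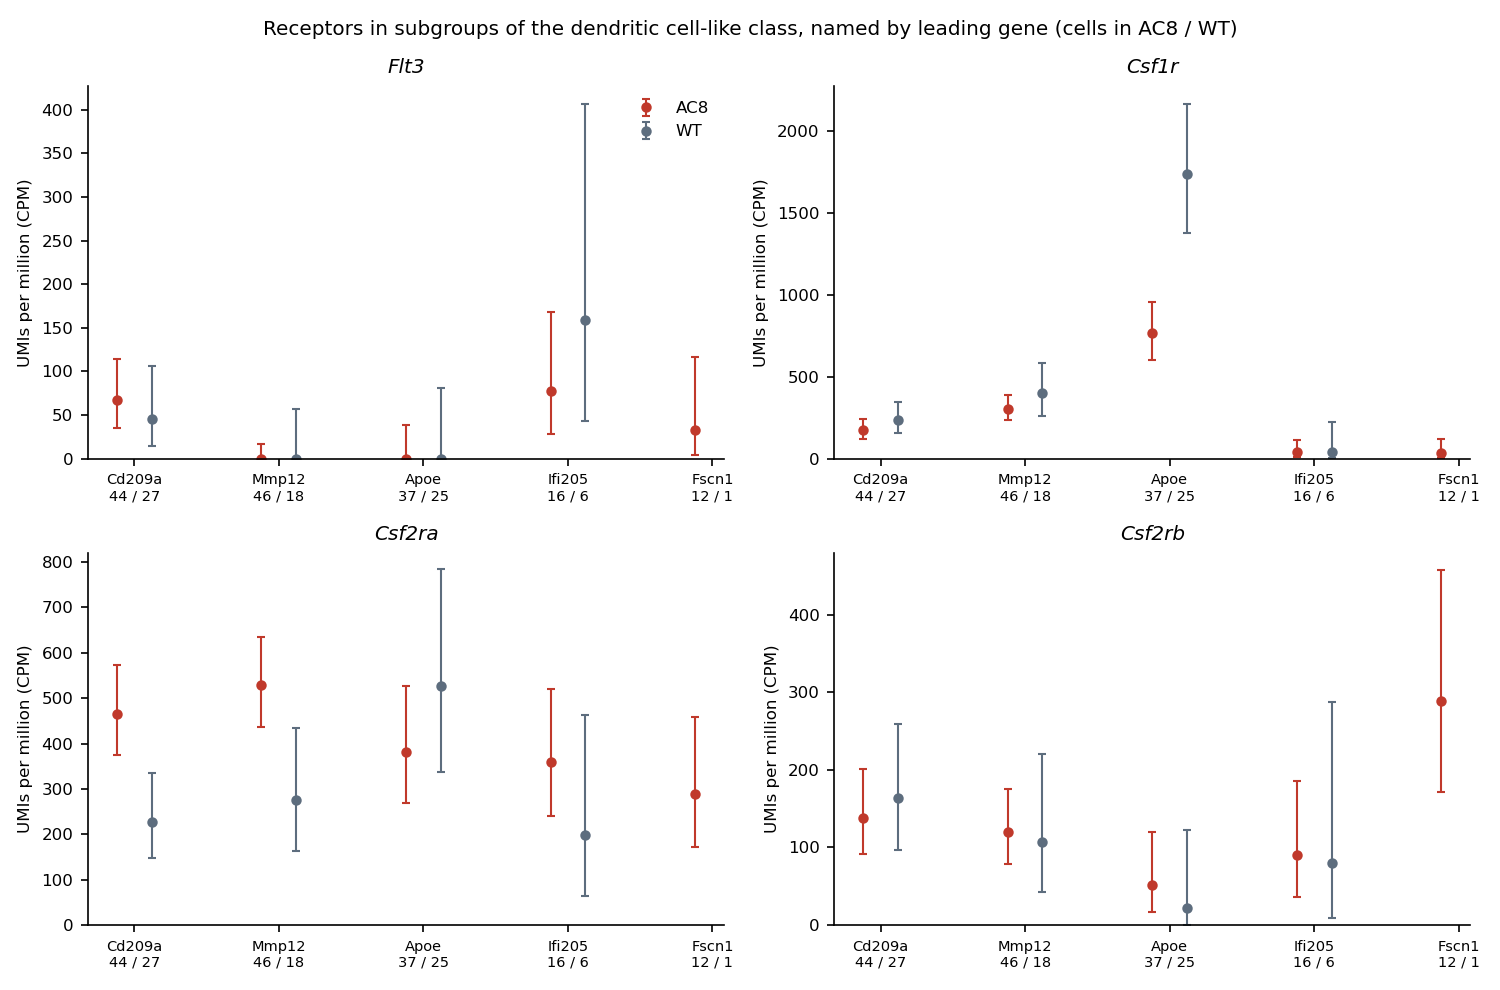
Flt3, Csf1r, Csf2ra and Csf2rb (panels; y axis in CPM) in the 5 subgroups of dendritic cell-like cells, each named by its leading gene with its cells in AC8 and WT, AC8 in red left of WT in grey, bars exact 95% Poisson intervals; the single WT cell of the Fscn1 subgroup is not drawn. Flt3 has no UMI in the Mmp12 and Apoe subgroups, while Csf1r is highest in the Apoe subgroup, 763 CPM in AC8 and 1737 CPM in WT; the Ifi205 subgroup is the one that holds Clec9a and Xcr1.

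Csf1r and Csf2ra were both present in 49.2% of AC8 (45.5% to 53.0%) and 30.6% of WT macrophage-like cells (26.9% to 34.6%), at median depths of 3219 UMIs in AC8 and 1998 in WT, a gap that moves with these shares. In dendritic cell-like cells both were present in 40.0% of AC8 and 39.0% of WT cells. Both chains of the GM-CSF receptor, Csf2ra and Csf2rb, were seen in 25.8% of AC8 and 16.9% of WT dendritic cell-like cells and in 9.57% of AC8 and 4.65% of WT macrophage-like cells.

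The ligands of the remaining receptors were sparse in the kept cells. Csf2, which encodes GM-CSF, had 3 UMIs in 1 NK cell-like cell in AC8 and 28 UMIs in 6 NK cell-like cells in WT, and AC8 fibroblast-like cells held 10 UMIs in 2 cells. Of the Csf2 UMIs in the NK cell-like class, 28 of 31 lay in a subgroup led by Il2ra and Areg. The other 3 lay in the subgroup led by S100a9, S100a8 and Hdc, and the subgroup led by Prf1 and with Ncr1 had 0. Csf3 and Il3 had no UMI in either library. Of the UMIs of Flt3l, the ligand of FLT3, 73.5% in AC8 and 79.8% in WT lay in fibroblast-like cells, at 19.6 CPM in AC8 and 19.8 CPM in WT. T cell-like cells had 32.5 CPM in AC8 (4 UMIs) and 26.3 CPM in WT (2 UMIs). Of the UMIs of Kitl, the ligand of the related receptor KIT, 70.0% in AC8 and 71.7% in WT lay in endothelial-like cells, at 770 CPM in AC8 and 956 CPM in WT, where Kit itself was 27.7 CPM in AC8 and 49.1 CPM in WT.

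Among 65 other genes of the pathway (ligands, receptors, CSF1 shedding, signalling, feedback and myeloid transcription factors), 49 were measured in macrophage-like cells, of which 2 were at least 1.5-fold higher and 5 lower in AC8, with a median log2 ratio of -0.04 against -0.02 over all genes, of which 5.68% were higher and 6.54% lower. Without the Spp1 cluster, a comparison chosen after seeing the data, 0 of 47 measured were higher and 3 lower: Runx1, Ets2 and Kitl. The share over all genes was not computed for that comparison. In it Il3ra fell just short of 1.5-fold, with 37.8 CPM in AC8 and 22.2 CPM in WT. Higher in the whole class were Fgr, a SRC-family kinase of myeloid cells, and Il3ra, the IL-3 receptor alpha chain. Fgr had 33.1 CPM in AC8 and 4.46 CPM in WT (87 UMIs in AC8, 6 in WT). Il3ra had 40.3 CPM in AC8 and 22.3 CPM in WT. Lower in the whole class were the transcription factors Runx1 (158 CPM in AC8, 315 CPM in WT), Ets2 (203 CPM in AC8, 364 CPM in WT) and Irf4 (10.3 CPM in AC8, 20.8 CPM in WT). The adaptor Sh2b3 (25.5 CPM in AC8, 45.4 CPM in WT) and Kitl (50.5 CPM in AC8, 104 CPM in WT) were lower too. The transcription factor Cebpb stood at 1968 CPM in AC8, against 2027 CPM in WT. Tyrobp, the DAP12 adaptor, had 2308 CPM in AC8 and 1880 CPM in WT, and Socs3, a cytokine-induced inhibitor, had 1502 CPM in AC8 and 1237 CPM in WT. Genes induced by tissue dissociation differed too, with 5 of 18 lower and 0 higher and a summed level of 49322 CPM in AC8 and 58457 CPM in WT, and their part in these values was not tested.

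In fibroblast-like cells 40 of the 65 genes were measured, of which 0 were higher and 3 lower in AC8, with a median log2 ratio of -0.16 against -0.05 over all genes, of which 0.847% were higher and 2.94% lower. The first of the lower genes was Timp3, the inhibitor of the ADAM17 protease that sheds membrane-bound CSF1, with 771 CPM in AC8 and 1280 CPM in WT. Adam17 itself was 58.8 CPM in AC8 and 67.1 CPM in WT. Lower as well were Cbl, the ubiquitin ligase that turns over CSF1R (23.0 CPM in AC8, 39.8 CPM in WT), and Ets2 (26.7 CPM in AC8, 53.2 CPM in WT). Of the dissociation genes, 5 of 18 were lower and 0 higher, summing to 38028 CPM in AC8 and 44400 CPM in WT, and their part was not tested.

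In endothelial-like cells 33 were measured, of which 2 were higher and 2 lower in AC8, beside 4.29% of all measured genes higher and 5.58% lower. Socs3 stood at 983 CPM in AC8 and 602 CPM in WT, and the kinase Fes at 49.9 CPM in AC8 and 29.4 CPM in WT, while Ccnd1, a cell-cycle cyclin, was 297 CPM in AC8 and 455 CPM in WT, and Kit was the other lower gene. Timp3 was 1036 CPM in AC8 and 1297 CPM in WT. Here 3 of 18 dissociation genes were higher and 0 lower, summing to 37960 CPM in AC8 and 32710 CPM in WT. Mural markers summed to 261 CPM in AC8 and 681 CPM in WT (9 of 9 detected in each), and erythroid markers to 701 CPM in AC8 and 2517 CPM in WT (5 of 5 in each), and the part of these genes and markers was not tested. In B cell-like cells 24 were measured, with Tyrobp (108 CPM in AC8, 45.5 CPM in WT) and Pim1 (423 CPM in AC8, 240 CPM in WT) higher and Adam10 (50.2 CPM in AC8, 84.5 CPM in WT) and Timp3 (39.6 CPM in AC8, 195 CPM in WT) lower, beside 9.16% of all measured genes higher and 11.5% lower. Markers of lymphatic endothelial cells in the same class summed to 2.64 CPM in AC8 (1 of 4 detected, with Prox1, Mmrn1 and Ccl21a at 0) and 689 CPM in WT (4 of 4), and endothelial markers to 153 CPM in AC8 (5 of 7, Cldn5 and Vwf at 0) and 533 CPM in WT (6 of 7, Vwf at 0). Of the dissociation genes, 4 of 15 measured were higher and 1 lower, summing to 17824 CPM in AC8 and 13740 CPM in WT, and the part of these markers and genes was not tested.

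Genes with the most similar pattern were sought over 20 points, the 10 classes in each library, among 9105 genes by Pearson's r of log2(CPM + 10). The points share libraries and depth, and r is a description. Closest to Csf1r were the macrophage pore-forming gene Mpeg1 (r = 0.969), Fcgr3 and Lair1. Csf2ra was closest to Tlr2 (0.938), Tifab and Ppfia4, and Csf2rb to the chemokine Ccl9 (0.976), the integrin Itgam and Pilra. Csf3r was closest to Slpi (0.911), Clec4e and Spn. Csf1 had looser company, led by Camk2n1 (0.886), Ddrgk1 and F2r.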

How the data were processed

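Per the labels' protocols, the authors made the deposited counts, which are UMIs per gene and cell in whole numbers, with Cell Ranger (version not given here), and the submitters' processing notes name the build mm10. Cells were kept from 1000 UMIs, 500 genes and up to 10% mitochondrial UMIs. Doublets were scored against simulated ones and removed at 0.8% per 1000 deposited cells (145 AC8, 173 WT). The 2000 most variable genes without the 7 members gave 30 principal components and a graph of 15 neighbours, partitioned with Leiden at resolution 1 (leidenalg 0.10.2, scikit-learn 1.9.0, scipy 1.17.1, Python 3.11.15). Clusters took the type whose markers scored highest, with at least 3 markers detected in 10% of cells; the scoring was set after seeing the data. Raw counts were summed per class and library. Intervals are Poisson for CPM, conditional binomial for ratios, and Clopper-Pearson for shares; UMIs of 0 allow up to 3 counts. Members and gene lists were chosen with earlier results of these data known. Named were all members, pathway genes past 1.5-fold or at the highest levels, and the 3 genes most like each member with 100 UMIs or more. Ratios and intervals were run on simulated counts with Poisson error alone. That is the error the intervals assume, so the run could not check them where UMIs lie in few cells. Alternatives covered filters, doublets, resolution, variable genes, denominators, thinning, size factors and pseudocounts. Gene positions come from the GENCODE annotation of GRCm38 and promoters from RefSeq.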

Additional observations from a re-analysis of the deposited data

How the results depend on the processing

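No paired analysis was possible because each genotype has 1 library, and for the same reason no replicate could be left out. Of the member ratios, the macrophage-like Csf1r ratio of AC8 over WT (0.867) turned to 1.05 without the Spp1 and Gpnmb cluster and to 1.02 in the MHC class II cluster alone, was 0.958 in the Lyve1 cluster alone, 0.810 with 2000 UMIs and 1000 genes per cell, and 0.926 with a median-of-ratios size factor. Csf2ra moved to 1.01 without the Spp1 cluster, and Csf2rb to 0.757 without it and 0.586 in the MHC class II cluster alone. The dendritic cell-like Csf1r ratio (0.526) was 0.839 with 2000 UMIs and 1000 genes, 0.729 at Leiden resolution 1.6 and 0.740 without the Apoe subgroup. Thinned to 1000 UMIs per cell, macrophage-like Csf1 was 0.322 and Csf3r 0.403, dendritic cell-like Flt3 2.48 and fibroblast-like Csf2ra 0.772, and Csf1 was 0.358 in the MHC class II cluster alone; few UMIs lie behind these. In macrophage-like cells without the Spp1 cluster, Fgr was no longer measured and Il3ra (log2 ratio 0.571) fell just short of 1.5-fold. The pathway counts of these cells became 0 higher and 3 lower in AC8. With a pseudocount of 1 CPM they were 8 lower in macrophage-like and 1 higher and 6 lower in fibroblast-like cells. With at least 100 UMIs they were 1 higher in macrophage-like, 1 higher and 0 lower in B cell-like, and 1 higher and 1 lower in endothelial-like cells. With at least 1 UMI B cell-like cells had 4 higher and 14 lower. A size factor left 3 lower in macrophage-like and 1 lower in endothelial-like cells, and the cause was not tested. The share over all genes was not computed under these alternatives, so the changed counts cannot be set beside it. The other 166 of these ratios and counts stayed within their interval or within 1.5 times. With 2000 UMIs and 1000 genes there was no B, T or NK cell-like class, and at resolution 0.6 no T or NK cell-like class, so these gave no value. The class with the highest Csf1r or Flt3 was the same under 7 of 7 cell filters and clusterings in both libraries. Csf1 kept its highest class under 5 of 7 in each library. At resolution 0.6 it was fibroblast-like in AC8, and at 500 UMIs and 250 genes it was NK cell-like in WT (261 CPM). At 2000 UMIs and 1000 genes it was a class named Schwann cell-like (224 CPM in AC8, 367 CPM in WT), of 21 AC8 and 32 WT cells. The Schwann cell-like class reported above had 22 AC8 and 31 WT cells, with medians of 1518.5 UMIs in AC8 and 1329 in WT. Too few of those cells reach 2000 UMIs to make up the class at that filter. It therefore held other cells under the same name, and its Csf1 cannot be credited to Schwann cells. At 500 UMIs and 250 genes the highest Csf3r moved to neutrophil-like cells in both libraries and the highest Csf2rb in WT (311 CPM), and at 2000 UMIs and 1000 genes the highest Csf2ra in AC8 moved to monocyte-like cells (473 CPM).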
